A study of Coptotermes formosanus x Coptotermes gestroi and Coptotermes formosanus and Coptotermes gestroi with 67 samples.

Results

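In workers of the subterranean termite Coptotermes gestroi, 44 of 15950 measured genes stood far above their level in the related species Coptotermes formosanus, in heads and in bodies and at every molting stage sampled. Both hybrids of the species carried these genes at levels between the species. The genes were chosen by their measured values. Expression was taken as CPM, the estimated read count of a gene scaled to a common column total, with 1 added. A gene was kept when its C. gestroi value was at least 4 times its C. formosanus value in each of 6 matched tissue and stage pairs, and when its counts summed over the 6 C. formosanus profiles exceeded 6. Its C. gestroi value also had to stay within 2-fold over the 3 stages in head and in body, and the mean values of the hybrids had to lie less than 2-fold apart. The difference between the species, the steadiness in C. gestroi and the closeness of the hybrids are therefore descriptions and carry no test.

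The study profiled RNA of workers from 4 matings: C. gestroi, Hybrid F, Hybrid G and C. formosanus. The first and last are conspecific and the hybrids heterospecific, and which species was the mother of either hybrid is not given in the labels. Heads and bodies (thorax and abdomen after removal of the gut) were taken at inter-molt, pre-molt and post-molt, which gave 24 groups and 67 samples. Of the groups, 21 held 3 samples. Pre-molt bodies of C. gestroi held 2, and inter-molt bodies of C. gestroi and of C. formosanus held 1 each. No allele, drug or other agent is named for any group, and worker age, colony and the number of workers per library are not given. Wherever a group had more than 1 deposited column, its columns held identical values (0 genes differed in any). Each of the 24 groups therefore entered as 1 profile, and the spread between workers could not be measured. Total counts per profile were 9861833 to 38338701. The lowest totals were those of the groups with 1 sample, at 9861833 in C. gestroi and 10080438 in C. formosanus inter-molt bodies. In bulk tissue, fewer cells that express a gene and less RNA per cell cannot be told apart.

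Workers of termites molt repeatedly, and around each molt the cuticle is separated, shed and rebuilt. A first-generation hybrid inherits a genome from each species, so a gene that is expressed from only one of the inherited copies can still be measured in the hybrid. Where genes have similar copies, estimated counts divide ambiguous reads among them, and the counts of such genes depend on that division. The gene IDs begin with Cfor or BGI_novel, and the files pair no ID with a name or a product. The labelled tissues could not be checked against marker genes for the same reason, and no function is given for any gene.

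Of the 15950 genes, 94 (0.589%) were at least 4 times higher in C. gestroi in all 6 pairs. The limit on C. formosanus counts left 80 of them, steadiness over the stages left 45, and the limit on the hybrids left 44. With the species exchanged, the same rule found 96 genes that were steady and far higher in C. formosanus, out of 223 at least 4 times higher there. Just inside the 4-fold limit stood BGI_novel_G002723 with a lowest ratio of 4.02 in pre-molt bodies, BGI_novel_G003512 with 4.04 and BGI_novel_G001268 with 4.07, both in inter-molt bodies. Just outside it stood Cfor_06345 with 3.97 in post-molt heads, BGI_novel_G003204 with 3.96 in post-molt bodies and Cfor_07206 with 3.95 in pre-molt heads.

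The median over the 44 genes of the mean CPM was 19.7 in C. gestroi, 8.68 in Hybrid F, 8.44 in Hybrid G and 0.781 in C. formosanus. Means of single genes ran over 4.15 to 272.4 CPM in C. gestroi, 1.71 to 151.3 in Hybrid F, 1.05 to 145.5 in Hybrid G and 0.0412 to 34.5 in C. formosanus. Mean CPM of C. gestroi over that of C. formosanus had a median of 20.5 and ran over 6.23 to 1540.6. The lowest of these ratios belonged to BGI_novel_G003069 and the highest to BGI_novel_G000468.

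**Figure D1:**
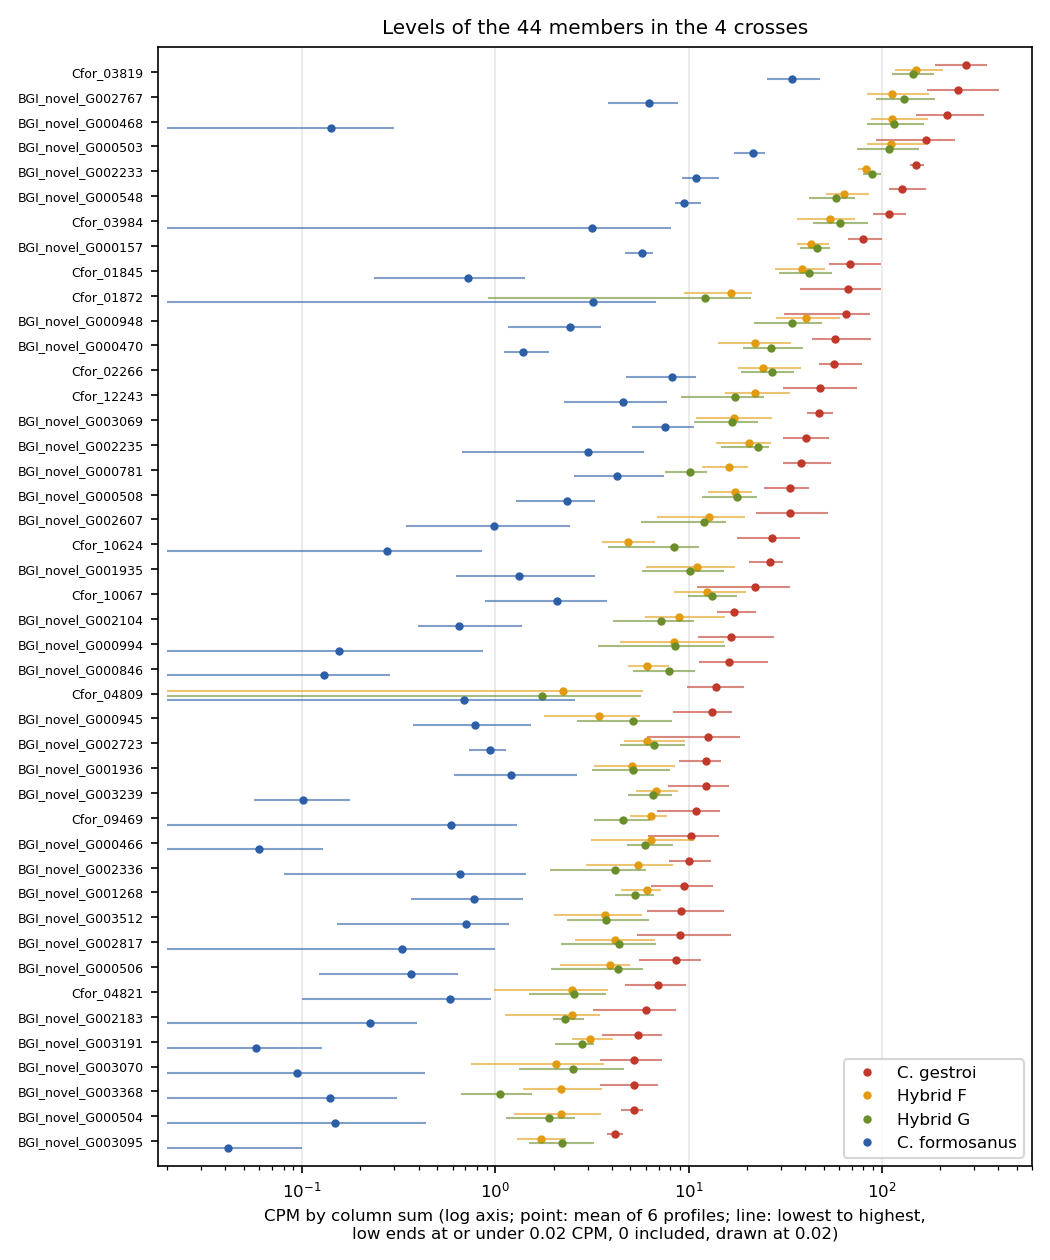
CPM by column sum (log axis) of each of the 44 genes in C. gestroi, Hybrid F, Hybrid G and C. formosanus. Points are means of 6 profiles and lines run over the lowest to the highest profile. Only low ends at or under 0.02 CPM, 0 included, are drawn at 0.02 CPM. The medians are 19.7, 8.68 and 8.44 CPM in C. gestroi, Hybrid F and Hybrid G and 0.781 CPM in C. formosanus.

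The most abundant of the genes was Cfor_03819. Its CPM at inter-, pre- and post-molt was 351.3, 348.2 and 274.6 in C. gestroi heads and 241.0, 189.5 and 230.0 in C. gestroi bodies. In Hybrid F it was 207.2, 141.5 and 152.1 in heads and 153.4, 117.7 and 135.9 in bodies. In Hybrid G it was 187.0, 154.7 and 146.4 in heads and 131.7, 112.9 and 140.4 in bodies. In C. formosanus it was 47.7, 27.0 and 25.5 in heads and 40.1, 30.2 and 36.4 in bodies. Every hybrid profile lay below every C. gestroi profile of the same tissue and stage and above every C. formosanus profile. Cfor_03819 averaged 272.4 ± 65.8 CPM in C. gestroi, 151.3 ± 30.3 in Hybrid F, 145.5 ± 24.9 in Hybrid G and 34.5 ± 8.55 in C. formosanus (SD over tissues and stages, n = 6 profiles each).

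BGI_novel_G002767 averaged 247.8 ± 82.9 CPM in C. gestroi, 112.8 ± 36.3 in Hybrid F, 131.0 ± 35.6 in Hybrid G and 6.26 ± 2.06 in C. formosanus (SD, n = 6 each). BGI_novel_G000468 reached 216.8 ± 65.7 CPM in C. gestroi, 112.6 ± 35.04 in Hybrid F, 115.5 ± 30.2 in Hybrid G, and only 0.141 ± 0.0999 in C. formosanus (SD, n = 6 each). That last level rests on 30 counts summed over the 6 C. formosanus profiles, and inter-molt bodies of C. formosanus had none. It had the largest ratio of C. gestroi to C. formosanus among the 44. BGI_novel_G000503 had 169.2 ± 52.5 CPM in C. gestroi, 111.2 ± 32.5 in Hybrid F, 108.5 ± 27.0 in Hybrid G and 21.5 ± 2.94 in C. formosanus (SD, n = 6 each).

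BGI_novel_G002233 had 149.9 ± 12.2 CPM in C. gestroi, 82.6 ± 4.31 in Hybrid F, 88.6 ± 7.39 in Hybrid G and 10.9 ± 1.84 in C. formosanus (SD, n = 6 each). BGI_novel_G000548 had 128.0 ± 21.7, 63.7 ± 12.2 and 58.3 ± 11.02 CPM in C. gestroi, Hybrid F and Hybrid G and 9.51 ± 1.31 in C. formosanus (SD, n = 6 each). Cfor_03984 had 109.0 ± 17.7, 54.2 ± 13.6 and 60.7 ± 15.0 CPM in C. gestroi, Hybrid F and Hybrid G and 3.16 ± 3.42 in C. formosanus (SD, n = 6 each). Its C. formosanus values were uneven, with 0, 0.558 and 2.40 CPM in heads and 8.07, 1.16 and 6.75 in bodies at inter-, pre- and post-molt. BGI_novel_G000157 had 80.2 ± 11.9, 43.1 ± 6.12 and 46.1 ± 6.46 CPM in C. gestroi, Hybrid F and Hybrid G and 5.71 ± 0.709 in C. formosanus (SD, n = 6 each). In each of these 8 most abundant genes both hybrid means lay between the means of the species.

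Levels of different genes are comparable only per length of the gene. Per kilobase, Cfor_03819 was again first in C. gestroi with 68.4 CPM per kb. BGI_novel_G003069 followed with 59.3, BGI_novel_G000468 with 58.1, BGI_novel_G000470 with 53.6 and BGI_novel_G002767 with 48.0 CPM per kb. BGI_novel_G003069 and BGI_novel_G000470 are short, with listed lengths of 797 and 1071 bases.

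The place of the hybrids between the species was measured for each gene as a fraction, 0 at the C. formosanus level and 1 at the C. gestroi level, matched by tissue and stage and taken as the median of the 6 pairs. On the linear CPM scale the median over the genes was 0.442 in Hybrid F, with the middle 50% of genes between 0.369 and 0.509, and 0.462 in Hybrid G, with the middle 50% between 0.345 and 0.519. For each hybrid, 39 of 44 genes lay between 0.25 and 0.75. On the log2 scale, where the low C. formosanus levels weigh more, the medians were 0.70 in Hybrid F, and 0.69 for Hybrid G. In plain amounts, the mean CPM was 46.5% of the C. gestroi mean in Hybrid F and 48.3% in Hybrid G (medians over genes). Set against the average of the species, the hybrid mean was 0.892 times that average in Hybrid F and 0.941 times in Hybrid G.

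Gene by gene, neither hybrid was the higher one as a rule: Hybrid F had the higher mean in 21 genes and Hybrid G in 23. Between the mean CPM of the hybrids the gap had a median of 1.10-fold. It was widest in BGI_novel_G003368, at 2.08-fold, and the rule kept that gene because its limit applies to CPM plus 1, on which the 44 genes reached 1.60-fold. Cfor_10624 followed, with 18.1% of its C. gestroi mean in Hybrid F and 31.0% in Hybrid G. Of 528 matched comparisons of a hybrid profile with the species, 521 fell between them, and 41 genes did so in all 12 comparisons. Among all genes tested 3.33% did so, and nothing is read from that difference because the rule itself parted the species. The exceptions were few. Cfor_04809 was at or below C. formosanus in 5 body comparisons, and BGI_novel_G001268 and Cfor_09469 were at or above C. gestroi in pre-molt bodies of Hybrid F.

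The hybrids stood at 0.442 (Hybrid F) and 0.462 (Hybrid G) of the way to the high species for the 44 genes, against 0.554 and 0.513 for the 96 genes far higher in C. formosanus under the exchanged rule. With the weighted trimmed-mean (TMM) scaling of the column totals the values were 0.425 and 0.467 for the 44 genes, against 0.557 and 0.558 for the 96. Dropping the limits on steadiness, hybrids and counts gave, by column sum, 0.447 and 0.433 for the 94 genes higher in C. gestroi, against 0.541 and 0.504 for the 223 higher in C. formosanus. The hybrids thus stood somewhat nearer the low species for genes higher in C. gestroi and slightly nearer the high species for genes higher in C. formosanus, in each of these settings. This difference was not tested.

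The place of the hybrids was lowest at pre-molt when levels were scaled by column sum. In heads at inter-, pre- and post-molt the median was 0.498, 0.356 and 0.441 in Hybrid F and 0.456, 0.344 and 0.473 in Hybrid G. In bodies it was 0.518, 0.409 and 0.447 in Hybrid F and 0.486, 0.355 and 0.499 in Hybrid G. The TMM factors also differed between stages. In heads, pre-molt minus inter-molt was -0.65 on the log2 scale in Hybrid F, -0.46 in Hybrid G, -0.30 in C. gestroi and -0.22 in C. formosanus. In bodies it was -0.67 in Hybrid F, -0.50 in Hybrid G, -0.53 in C. gestroi and -0.35 in C. formosanus. In Hybrid G bodies the drop was thus no larger than in C. gestroi bodies. The part of scaling in the stage pattern was not tested. With TMM scaling the head medians were 0.444, 0.416 and 0.418 in Hybrid F and 0.471, 0.406 and 0.461 in Hybrid G, so the difference between stages was smaller. Bodies of Hybrid G kept the widest range, at 0.533, 0.384 and 0.461.

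**Figure D2:**
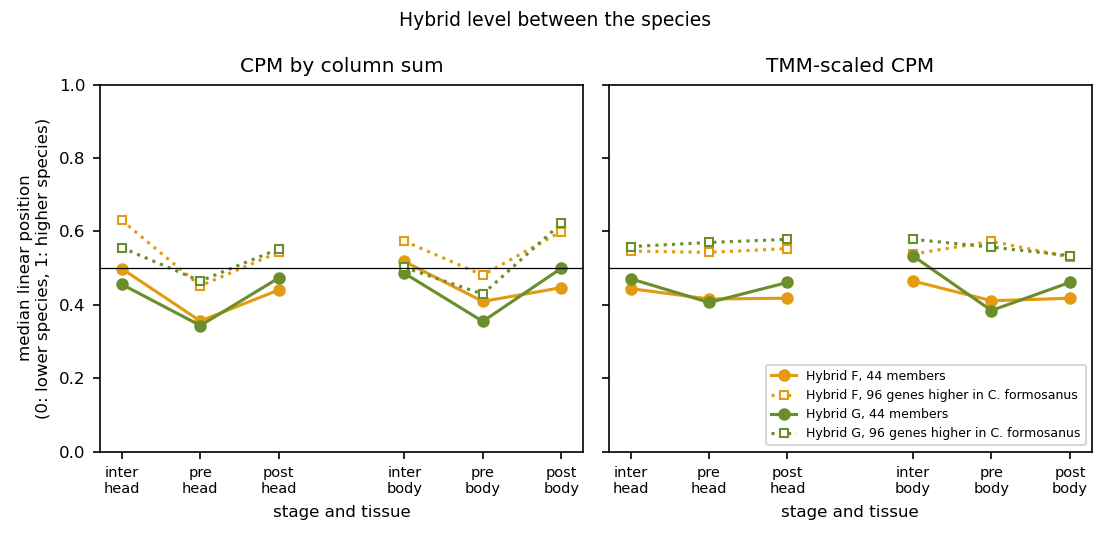
Median place of Hybrid F and Hybrid G between the species by tissue and stage (0 is the lower and 1 the higher species), for the 44 genes (filled points) and the 96 genes far higher in C. formosanus (open squares), by column sum (left) and with TMM scaling (right). With TMM scaling the 44 genes stand at 0.416 in pre-molt heads of Hybrid F and 0.406 in those of Hybrid G, against 0.356 and 0.344 by column sum.

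Among genes with a C. gestroi mean of at least 5 CPM, the hybrids came closest to C. gestroi on the log2 scale for BGI_novel_G000468 (0.88), Cfor_01845 (0.85), BGI_novel_G000948 (0.82) and Cfor_03984 (0.82). All 4 had low C. formosanus levels, which raises a place measured on the log2 scale, and on the linear scale they stood at 0.525, 0.546, 0.571 and 0.520. Cfor_01845 had 49.96, 27.9 and 34.6 CPM in Hybrid F heads and 55.2, 29.5 and 37.6 in Hybrid G heads at inter-, pre- and post-molt. The same heads had 99.6, 68.6 and 69.5 CPM in C. gestroi and 1.42, 0.235 and 0.251 in C. formosanus.

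The hybrids came closest to C. formosanus for Cfor_04809, with a log2 place of 0.09. In C. gestroi this gene had 13.6, 19.5 and 13.0 CPM in heads and 16.2, 10.8 and 9.82 in bodies at inter-, pre- and post-molt. In Hybrid F it had 4.38, 5.84 and 3.17 CPM in heads and was listed as NA in all 3 body profiles. In Hybrid G it had 2.52, 5.69 and 2.15 CPM in heads, and in bodies 0.147 CPM at pre-molt, which is 5.25 estimated counts, a listed 0 at inter-molt and NA at post-molt. In C. formosanus it had 0, 2.58 and 1.54 CPM in heads and NA in all 3 bodies. These 7 NA entries were read as 0 here, and what NA stands for is not given in the sources at hand. With that reading, counts were present in hybrid heads and at or near 0 in hybrid bodies, and present in both tissues of C. gestroi. A listed 0 allows up to 3 counts, which is 0.0783 to 0.304 CPM depending on the profile.

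BGI_novel_G003368, BGI_novel_G003069 and Cfor_01872 followed, with log2 places of 0.42, 0.43 and 0.48. BGI_novel_G003368 was also one of the genes on which the hybrids differed, with 41.98% of its C. gestroi mean in Hybrid F and 20.2% in Hybrid G. Cfor_01872 averaged 24.8% of its C. gestroi mean in Hybrid F and 18.2% in Hybrid G. Its inter-molt head profile of Hybrid G stood apart at 0.918 CPM, against 7.87 to 20.9 CPM in the other 5 Hybrid G profiles.

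Head and body were compared with edgeR's quasi-likelihood test over all 24 profiles, with each mating and stage as a block (12 blocks). The choice of the genes did not compare head with body. It did ask for a C. gestroi value at least 4 times that of C. formosanus in both tissues. Genes absent from 1 tissue of C. gestroi could therefore not enter. A p-value here measures how a tissue difference recurs over matings and stages. Levels in this and the stage comparison are TMM-scaled over all 24 profiles and all genes. Each test computed its own TMM factors from the filtered genes of its own profiles, so the levels are not exactly on the scale of the tests. Of the 44 genes, 11 (25%) passed the adjusted p threshold of 0.05, against 46.4% of the 12416 genes tested. All 11 were higher in head and 0 were lower, while 24.9% of all genes tested were higher and 21.5% lower. At an unadjusted p under 0.05, 15 of the genes were higher in head and 1 lower, and DESeq2 called 11 higher and 1 lower. The median log2 head over body was 0.11 over the 44 genes and 0.04 over all genes tested. The share called was thus below that of all genes. Nothing is read from this, because the rule asked for a high C. gestroi level in both tissues.

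BGI_novel_G000948 had the smallest adjusted p. In heads at inter-, pre- and post-molt it had 69.8, 87.5 and 85.2 TMM-scaled CPM in C. gestroi, 44.95, 43.9 and 45.5 in Hybrid F, 41.0, 43.8 and 39.8 in Hybrid G and 2.94, 1.96 and 2.75 in C. formosanus. In bodies it had 55.1, 39.7 and 52.8 in C. gestroi, 32.5, 35.8 and 30.3 in Hybrid F, 26.5, 29.5 and 32.0 in Hybrid G and 2.74, 1.24 and 2.13 in C. formosanus. Heads were higher in 12 of 12 pairs, and the log2 difference was 0.52 ± 0.08 (SE; edgeR adjusted p = 0.000108).

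BGI_novel_G000503 was also higher in head in 12 of 12 pairs, with a log2 difference of 0.35 ± 0.07 (SE; edgeR adjusted p = 0.000684). Its levels ran over 20.9 to 211.3 TMM-scaled CPM in heads, with a median of 120.3, and over 16.6 to 147.2 in bodies, with a median of 102.0. Cfor_10067 was higher in head in 11 of 12 pairs, with a log2 difference of 0.51 ± 0.10 (SE; edgeR adjusted p = 0.00126). Over all matings together, head and body ranges overlapped for each of these genes.

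The other genes called higher in head were BGI_novel_G002817, Cfor_12243, Cfor_04809, BGI_novel_G002767, Cfor_04821, BGI_novel_G003512, BGI_novel_G000468 and Cfor_02266. Within C. gestroi, 10 of the 11 called genes had the higher mean in heads. The exception was Cfor_02266, with 55.3 TMM-scaled CPM in C. gestroi heads and 58.1 in C. gestroi bodies. BGI_novel_G002817 had a log2 difference of 1.11 ± 0.26 (SE; edgeR adjusted p = 0.00359) and was higher in head in 12 of 12 pairs. For Cfor_04809 the fitted log2 difference of 4.33 depends on bodies listed as NA and read as 0 and is no measure of size. It rests on the hybrids and C. formosanus, since C. gestroi heads and bodies overlapped. BGI_novel_G000468, BGI_novel_G003512 and Cfor_02266 lost the call in 18, 10 and 25 of 29 alternatives, with adjusted p over the alternatives of 0.0232 to 0.249, 0.00924 to 0.0666 and 0.00536 to 0.133. With the hybrids alone, 7 genes were called, of which 5 were among the 11. In that fit Cfor_10067 had a log2 difference of 0.29 (edgeR adjusted p = 0.072), Cfor_12243 of 0.25 (edgeR adjusted p = 0.168) and BGI_novel_G002767 of 0.10 (edgeR adjusted p = 0.295), so these 3 lost the call there too.

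**Figure D3:**
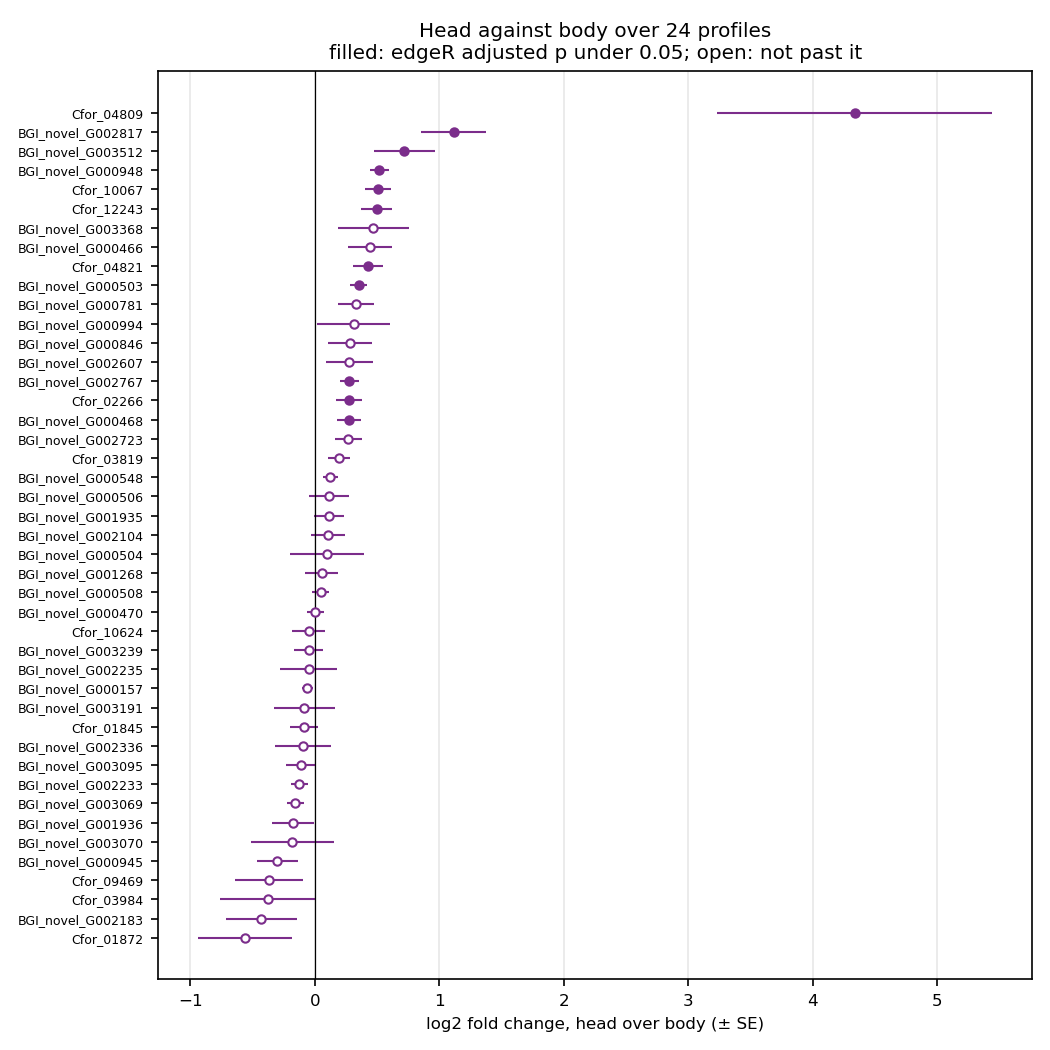
Log2 head over body of each of the 44 genes from the edgeR fit over 24 profiles, with its standard error. The 11 genes that passed the adjusted p threshold of 0.05 are all higher in head.

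Stage was tested in the hybrids, because the choice of the genes had limited stage differences in C. gestroi and set no limit within a hybrid. The hybrids are not independent of that limit, since a hybrid also inherits a C. gestroi genome. The shares called and the sizes of stage differences are therefore descriptions, and nothing is read from their distance to all genes. The edgeR fit held the 12 hybrid profiles (4 residual degrees of freedom), and its p-values measure recurrence over both hybrids. In hybrid heads 14 of 44 genes (31.8%) passed the threshold of adjusted p, against 38.9% of the 13590 genes tested. In hybrid bodies 8 of 44 (18.2%) passed, against 36.3%. In both tissues 6 genes passed, against 26.1% of all genes tested, and 28 genes passed in neither. The largest log2 difference between stages had a median of 0.47 over the 44 genes and 0.65 over all genes tested in heads, and 0.34 and 0.63 in bodies. Of the called genes, 10 of 14 in heads and 7 of 8 in bodies had a largest difference under 1.

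BGI_novel_G002336 had the smallest adjusted p in hybrid heads. At inter-, pre- and post-molt its heads had 6.09, 3.40 and 7.98 TMM-scaled CPM in Hybrid F and 3.82, 2.21 and 5.88 in Hybrid G, lowest at pre-molt in both. Post-molt minus pre-molt was 1.34 on the log2 scale (edgeR adjusted p for stage = 0.00666). C. gestroi heads had 10.6, 8.05 and 14.4. In hybrid bodies the gene did not follow this order, with 4.91, 4.19 and 4.50 in Hybrid F and 5.78, 4.32 and 3.86 in Hybrid G.

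BGI_novel_G003070 fell at pre-molt in hybrid heads. It had 2.69, 0.857 and 1.47 TMM-scaled CPM in Hybrid F heads and 3.89, 1.53 and 1.99 in Hybrid G heads at inter-, pre- and post-molt. Pre-molt minus inter-molt was -1.55 on the log2 scale (edgeR adjusted p for stage = 0.0108). BGI_novel_G000945 had a pre-molt minus inter-molt log2 difference of -1.15 in hybrid heads (edgeR adjusted p for stage = 0.0203).

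Cfor_03984 passed in both tissues. It had 42.5, 48.5 and 78.1 TMM-scaled CPM in Hybrid F heads and 53.6, 61.2 and 76.3 in Hybrid G heads at inter-, pre- and post-molt. In bodies it had 40.9, 46.2 and 62.3 in Hybrid F and 47.5, 59.6 and 80.3 in Hybrid G. Post-molt was the highest stage in all 4 of these series. Post-molt minus inter-molt was 0.67 on the log2 scale in heads (edgeR adjusted p for stage = 0.0104) and 0.70 in bodies (edgeR adjusted p for stage = 0.0116).

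BGI_novel_G001268 peaked at pre-molt in hybrid bodies, with 5.29, 8.59 and 4.28 TMM-scaled CPM in Hybrid F and 5.32, 7.56 and 3.95 in Hybrid G at inter-, pre- and post-molt. Post-molt minus pre-molt was -0.96 on the log2 scale (edgeR adjusted p for stage = 0.0117). C. gestroi bodies, which were steady by the choice of the genes, had 7.69, 8.15 and 7.83 TMM-scaled CPM. By column sum the hybrid bodies of this gene had 6.66, 6.81 and 4.46 CPM in Hybrid F and 5.55, 5.59 and 4.17 in Hybrid G. On that scale pre-molt was close to inter-molt and post-molt was lowest, so the peak over inter-molt depends on the scaling. BGI_novel_G002233 was higher at pre-molt than at inter-molt in both hybrid tissues, by a log2 difference of 0.49 in heads and 0.42 in bodies on the TMM scale (edgeR adjusted p for stage = 0.0176 and 0.0315), and by column sum this direction turned in bodies of both hybrids and in Hybrid F heads. By column sum its pre-molt bodies had 82.1 CPM in Hybrid F and 80.2 CPM in Hybrid G, against 88.2 and 95.6 at inter-molt, and its Hybrid F heads had 80.6 at pre-molt against 84.5 at inter-molt. The stage call of Cfor_04809 in hybrid bodies rests on the 5.25 counts in 1 Hybrid G profile and had an adjusted p of 1 without it.

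**Figure D4:**
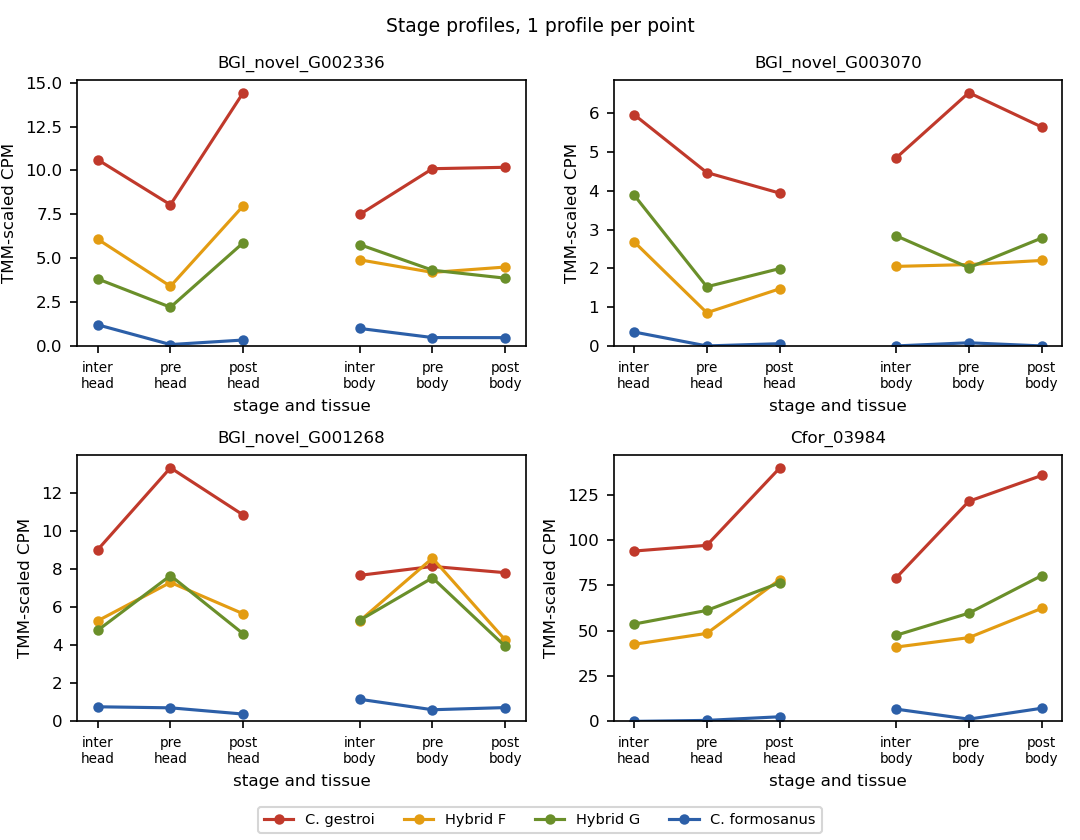
TMM-scaled CPM of 4 genes at inter-, pre- and post-molt in heads (left of each panel) and bodies (right), 1 profile per point, for C. gestroi, Hybrid F, Hybrid G and C. formosanus. BGI_novel_G002336 is lowest at pre-molt in the heads of both hybrids, and Cfor_03984 is highest at post-molt in the heads and bodies of both.

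With 4 residual degrees of freedom these calls leaned on single profiles. Leaving out 1 profile at a time gave 2 to 16 called genes in hybrid heads and 0 to 10 in hybrid bodies. In heads the count was 3, 4 and 2 without the inter-, pre- and post-molt head profile of Hybrid F and 4, 4 and 3 without those of Hybrid G. It was 7 without the pre-molt body and 9 without the post-molt body profile of either hybrid. In bodies it was 2 without the pre- or post-molt body profile of Hybrid F, the pre-molt body profile of Hybrid G or any single head profile, and 0 without the post-molt body profile of Hybrid G, where 9 genes passed at an unadjusted p under 0.05 in edgeR.

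Steadiness over the stages had been asked of C. gestroi alone. The highest over the lowest value of CPM plus 1 over the stages had a median of 1.46 in C. formosanus heads (1.06 to 7.78) and 1.30 in its bodies (1 to 4.20), and 9 genes in heads and 3 in bodies were over 2. In Hybrid F the medians were 1.75 in heads and 1.54 in bodies, with 9 and 3 genes over 2. In Hybrid G they were 1.53 and 1.62, with 7 genes over 2 in each tissue. The widest range, 11.4, was that of Cfor_01872 in Hybrid G heads, where the inter-molt profile was low.

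What the genes shared beyond the rule was mostly a matter of their IDs and counts. BGI_novel IDs made up 33 of the 44 (75%), against 24.8% of all genes and 16.1% of the 9342 genes with a C. gestroi mean at least as high as the lowest of the 44. The share was similar among all 94 genes at least 4-fold higher in C. gestroi (73.4%), all 223 higher in C. formosanus (74.0%) and the 96 of the exchanged rule (69.8%). It was therefore shared with genes of the opposite direction. The listed gene length had a median of 2857 bases and ran over 350 to 9901, against a median of 3512.5 among the 9342 genes.

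Estimated counts that are not whole numbers arise when reads are divided among genes. Of the 1021 values above 0 of the 44 genes, 895 (87.7%) were not within 0.005 of a whole number, against 28.1% in the 9342 genes. The difference was seen within both kinds of ID, beside genes with a C. gestroi mean at least as high as the lowest of the 44. The share was 86.7% in the 11 Cfor genes against 19.8% in 7840 such Cfor genes. It was 88.0% in the 33 BGI_novel genes against 73.3% in 1502. Only BGI_novel_G002104 and Cfor_04821 had whole counts throughout. In the 96 genes of the exchanged rule the share was 68.0%. Thus 42 of the 44 genes had values that held divided reads, though in BGI_novel_G001268 only 3 of 24 values did. How much of each count was divided was not measured, and the part of this in the difference between the species was not tested.

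**Figure D5:**
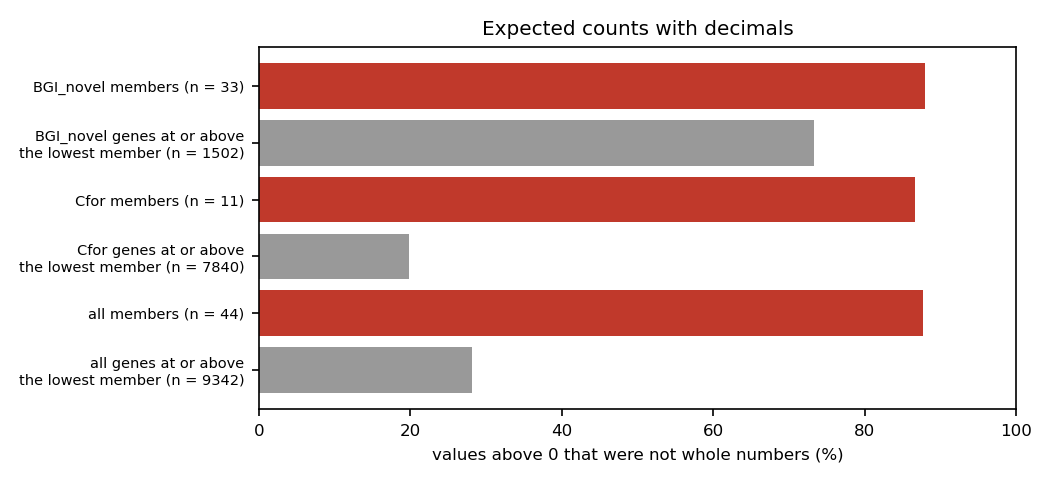
Percent of values above 0 that are not within 0.005 of a whole number, for the 44 genes, by kind of ID, beside other gene sets. The 44 genes stand at 87.7%, against 28.1% in the 9342 genes with a C. gestroi mean at least as high as the lowest of the 44.

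The genes also lay close to each other in ID number. Of the 44, 14 (31.8%) had another gene at least 4-fold higher in C. gestroi within 2 ID numbers, against 2.07% of all genes and 6.03% of BGI_novel genes. For the 96 genes of the exchanged rule the share was 7.29%. A neighbour at least 4-fold higher in C. formosanus was found for 19.8% of these 96 and 13.6% of the 44. The same held for 4.92% of all genes and 14.7% of BGI_novel genes. Whether ID numbers follow the order of genes on a chromosome is not known here. The runs named next were picked after their values were seen.

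In the run from BGI_novel_G000466 to BGI_novel_G000470, BGI_novel_G000466, BGI_novel_G000468 and BGI_novel_G000470 belong to the 44. BGI_novel_G000469, between them, had 45.8 ± 8.45 CPM in C. gestroi, 20.8 ± 5.22 in Hybrid F, 20.4 ± 3.77 in Hybrid G and no count in any C. formosanus profile (SD, n = 6 each). It missed the list only because it had no C. formosanus count. BGI_novel_G000467 had next to no counts in any mating, and BGI_novel_G000464 and BGI_novel_G000465, just before the run, were at similar levels in the species, with 199.9 and 3.75 CPM in C. gestroi and 166.6 and 3.998 in C. formosanus.

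In the run from BGI_novel_G000503 to BGI_novel_G000508, both end genes, BGI_novel_G000504 and BGI_novel_G000506 belong to the 44. BGI_novel_G000505 had 79.6 ± 23.3 CPM in C. gestroi, 35.6 ± 12.6 in Hybrid F, 31.7 ± 10.3 in Hybrid G and no C. formosanus count (SD, n = 6 each). From BGI_novel_G000943 to BGI_novel_G000948 all 6 genes were higher in C. gestroi, and 2 of them, BGI_novel_G000945 and BGI_novel_G000948, belong to the 44. Smaller groups were BGI_novel_G001935 with BGI_novel_G001936, BGI_novel_G002233 with BGI_novel_G002235, and BGI_novel_G003069 with BGI_novel_G003070. BGI_novel_G003068, next to the last of these, went the other way but was uneven over profiles. Its median was 0.0348 CPM in C. gestroi, 3.69 in Hybrid F, 5.44 in Hybrid G and 5.84 in C. formosanus (6 profiles each). The C. formosanus mean was 28.8 ± 52.4 CPM (SD, n = 6), and 7.71 without its pre-molt body profile, which had 134.2. Other genes beside the groups also had their higher mean in C. formosanus. In C. gestroi and C. formosanus, BGI_novel_G002232 had 1.27 and 5.23 CPM, BGI_novel_G002236 1.33 and 7.05, and BGI_novel_G000471 2.69 and 7.52. BGI_novel_G000949 (34.4 and 40.6) and BGI_novel_G001937 (41.2 and 46.8) had smaller gaps. BGI_novel_G000502, BGI_novel_G001933, BGI_novel_G001934, BGI_novel_G002231 and BGI_novel_G002234 had the higher mean in C. gestroi. For BGI_novel_G002231 the gap was small, at 22.3 ± 8.39 CPM in C. gestroi and 19.3 ± 8.57 in C. formosanus (SD, n = 6 each). BGI_novel_G002234 was low and uneven over profiles, at 1.04 ± 2.55 and 0.387 ± 0.514 CPM (SD, n = 6 each).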

How the data were processed

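Per the labels, mRNA libraries were made from Trizol-extracted RNA of heads and of bodies without gut. The authors deposited 1 table of expected counts (estimated counts with decimals) per gene, with a gene length. Bowtie2, RSEM and DESeq2 are named per the submitters' processing notes, and for none of them is a version or role known here; genome build and annotation: not given in the sources used here. Values of genes with near-identical copies are uncertain, because estimated counts divide ambiguous reads.

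Columns of a group were identical, so 24 profiles were analysed. NA, in 8.22% of the cells, was read as 0. CPM used column sums. The tests were edgeR 4.0.16 quasi-likelihood tests in R 4.3.3 (robust glmQLFit, then glmQLFTest) on rounded counts after filterByExpr and TMM scaling, and p-values were adjusted by Benjamini-Hochberg over all genes tested. Head against body had mating by stage as blocks (11 residual degrees of freedom), and stage in hybrids had hybrid by tissue as a term. The p-values measure recurrence over matings and stages, not the spread between workers. TMM-scaled CPM beside the tests was chosen after seeing the data. Floors (3 counts) cover counting error only.

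The 44 members and all lists were chosen with earlier results of these data known. Named genes were, by rule, the 8 with the highest C. gestroi CPM, the 4 with the highest and the 4 with the lowest place of the hybrids among genes of at least 5 CPM, the 3 per direction or tissue with the smallest adjusted p in each test, and the 3 on either side of the 4-fold limit; other genes were named after their values were seen. No table pairs the IDs with names, so the gene lists and cell type markers matched no gene. On simulated counts, with 200 changed genes each, head against body recovered 47% of changes of 1.5-fold, 84.5% at 2-fold and 100% at 4-fold. Stage in hybrid heads recovered 1.5%, 32% and 82.5%, and in hybrid bodies 0%, 36% and 90.5%. Alternatives were DESeq2 1.42.0, RLE size factors, testing without a filter, using Hybrid F and Hybrid G alone, genes with any NA left out, and each profile left out in turn.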

Additional observations from a re-analysis of the deposited data

Results flagged for a closer look

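Cfor_01845 stood out because head and body ordered differently in C. gestroi and in the hybrids. By column sum, its log2 head over body was 0.44 in C. gestroi, against -0.10 in Hybrid F and -0.09 in Hybrid G, with all 3 C. gestroi pairs higher in head and all 6 hybrid pairs lower. The difference was not tested. With TMM scaling the value was 0.32 in C. gestroi, while Hybrid F had -0.13 and Hybrid G -0.16, and heads were higher in 3 of 3 C. gestroi pairs, 0 of 3 Hybrid F pairs and 1 of 3 Hybrid G pairs, so that the opposite order no longer held in every Hybrid G pair.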

How the results depend on the processing

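The number of genes that pass the rule was 44, and moved to 16 with an 8-fold limit and 79 with no limit on steadiness. With TMM-scaled CPM it was 55, of which 39 were shared with the 44, and leaving out 1 profile gave 41 to 61. The place of the hybrids was 0.70 and 0.69 on the log2 scale in Hybrid F and Hybrid G, and 0.442 and 0.462 on the linear scale. Head against body gave 11 calls, 7 with the hybrids alone and 8 to 12 with 1 profile left out. Stage in hybrid heads gave 14 calls, and 2 to 16 with 1 profile left out. Stage in hybrid bodies gave 8 calls, 5 without the filter and 0 to 10 with 1 profile left out. For these changes the cause was not tested, apart from the fewer profiles of the fits that leave some out. Directions were followed over the alternatives for the 11 head against body calls and the 3 genes with the smallest adjusted p in each stage test, and none was reversed. No alternative fit was scaled by column totals alone, so these fits could not show a change of direction under that scaling. By column sum the pre-molt direction of BGI_novel_G002233 turned, as given above. That of Cfor_03819 turned in hybrid bodies, where pre-molt minus inter-molt was 0.29 on the log2 scale (edgeR adjusted p for stage = 0.0495). By column sum these bodies had 117.7 CPM at pre-molt against 153.4 at inter-molt in Hybrid F, and 112.9 against 131.7 in Hybrid G. Directions by column sum were not followed for every gene called for stage. No paired analysis was possible because the columns of a group are identical, so that replicate numbers carry no separate values. Depth limits the low C. formosanus levels, where 3 counts correspond to 0.0783 to 0.304 CPM.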
